A study of Saccharomyces cerevisiae with 8 samples.

Results

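Ribosome footprints in open reading frames (ORFs) of long noncoding RNAs were compared between upf1 mutant yeast given cycloheximide (CHX) and upf1 mutant yeast given none. The RNAs were Xrn1-sensitive unstable transcripts (XUTs), which accumulate when the cytoplasmic exonuclease Xrn1 is missing. An ORF entered the comparison if it had at least 1 read in either upf1 column and did not lie on the 2-micron plasmid. This gave 7271 ORFs of 1373 XUTs, out of 13941 ORFs of 1637 XUTs in all. The upf1 + CHX cells and the upf1 cells without CHX both carried the allele labelled upf1*::kanMX4, and WT + CHX and WT cells, used here beside them, did not. All 4 groups shared the BY4741 background, which is MATa with his3Δ1, leu2Δ0, met15Δ0 and ura3Δ0, and were grown at 30 °C in YPD until OD600 reached 0.5. CHX was applied for 15 min, and its concentration is not given in the sources used here. Per the labels, each group had 2 biological replicates, but the table merges them into 1 value per ORF, so no difference below could be tested against the spread between cultures and no p-value is given. The table lists ORFs of XUTs and no coding gene, so it offers no reading of UPF1 itself.

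CHX binds the ribosome and blocks its movement along the RNA, so that ribosomes stall where they stand while new ones can still load at start codons. It is often added before harvest to hold ribosomes in place during ribosome profiling, and piling of footprints near start codons is a known result of adding it to living cells. Upf1 is an RNA helicase needed for nonsense-mediated decay, the pathway that degrades RNAs on which translation ends early. Many XUTs are known to be substrates of that pathway, and many lie antisense to protein-coding genes.

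Member ORFs held 41067 reads in upf1 + CHX, against 23650 in upf1 without CHX. Neither total is a library depth, because reads outside XUT ORFs are not in the table, so each value below is a share of its own column or a ratio of such shares, upf1 + CHX over upf1. In WT + CHX the same ORFs held 31843 reads, and in WT without CHX 4224, which makes WT the least precise column. The table gives no RNA level, so more RNA and more ribosomes per RNA cannot be told apart. Intervals are 95% intervals and cover counting error only. Their median length was 63 nt, in a range of 15 to 4038 nt, and the median XUT had 7 listed ORFs. Of the members, 65.2% overlapped another listed ORF on their strand, whose reads may be counted in both, so intervals on shares of all ORFs may be too narrow.

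The ORFs below had the 3 highest and the 3 lowest ratios among the named ORFs that overlap no other listed ORF, and the XUT1253 ORF, which overlaps one, is shown for its rank next to XUT1036. Each line gives 12 bases upstream, the ORF and its stop codon, with the start and stop codons in capitals. Sequences are from the R64 genome, read 5′ to 3′ on the strand of the XUT, and coordinates cover the ORF without its stop codon. The first 4 had a larger share with CHX, and the last 3 a smaller one.
XUT1036 first ORF, chr4:217079-217102, minus strand: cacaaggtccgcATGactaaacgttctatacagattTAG
XUT1253 first ORF, chr7:714918-714971, minus strand: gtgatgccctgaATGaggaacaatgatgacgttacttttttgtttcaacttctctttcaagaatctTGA
XUT1049 first ORF, chr4:444054-444140, minus strand: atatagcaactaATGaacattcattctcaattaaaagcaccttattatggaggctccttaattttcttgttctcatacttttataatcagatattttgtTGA
XUT0909 first ORF, chr16:620367-620402, plus strand: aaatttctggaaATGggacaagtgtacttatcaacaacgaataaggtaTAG
XUT0692 second ORF, chr13:165660-165743, plus strand: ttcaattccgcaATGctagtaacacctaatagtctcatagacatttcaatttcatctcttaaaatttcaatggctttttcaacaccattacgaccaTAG
XUT0974 first ORF, chr2:380970-381059, minus strand: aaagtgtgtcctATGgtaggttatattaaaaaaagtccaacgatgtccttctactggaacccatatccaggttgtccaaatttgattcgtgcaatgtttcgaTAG
XUT0311 second ORF, chr6:89676-89747, plus strand: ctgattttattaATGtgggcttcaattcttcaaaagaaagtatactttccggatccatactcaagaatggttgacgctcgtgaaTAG

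More ORFs had a read in upf1 + CHX, the column with more reads, mainly through ORFs with few reads. Of the 7271 ORFs, both upf1 columns had a read in 3538, upf1 + CHX alone in 2247 and upf1 without CHX alone in 1486. ORFs read in upf1 + CHX alone held 4295 reads with a median of 1 and a maximum of 24, and those read in upf1 without CHX alone held 2229 reads with a median of 1 and a maximum of 8. At the level of whole transcripts, 1095 of the 1373 XUTs had reads in both, 230 in upf1 + CHX alone and 48 in upf1 without CHX alone. The deeper column has more chances of a single read, so these counts are not compared further. The 10 most-read ORFs held 6.46% of the reads in upf1 + CHX, against 8.30% in upf1.

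With CHX, a larger share of the reads lay in the first ORF of the XUT and a smaller share far from it. First ORFs, counted from the 5′ end among all listed ORFs of a XUT, held 36.3% of the reads in upf1 + CHX (35.8 to 36.7%), against 29.7% in upf1 (29.1 to 30.3%). The difference was 6.59 percentage points (5.84 to 7.34), and 4.26 points as a mean over XUTs of the share within each. Second ORFs also held more over all member ORFs, 19.97% in upf1 + CHX against 18.03% in upf1. Over ORFs that overlap no other this reversed, with 15.2% in upf1 + CHX and 16.9% in upf1. That difference was -1.76 points (-2.88 to -0.65). Among all member ORFs, those of order 3 held 9.67% in upf1 + CHX and 9.92% in upf1, a difference whose interval includes 0. Those of order 4 held 6.65% in upf1 + CHX and 7.16% in upf1. ORFs of order 5 and later held 27.4% in upf1 + CHX (27.0 to 27.9%) and 35.2% in upf1 (34.6 to 35.8%), a difference of -7.77 points (-8.52 to -7.03), and of -4.04 points as a mean over XUTs. Per length, first ORFs carried 190.0 reads per kb in upf1 + CHX and 89.5 in upf1, while ORFs of order 5 and later carried 34.1 in upf1 + CHX and 25.2 in upf1, in columns that were not scaled to each other.

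**Figure D1:**
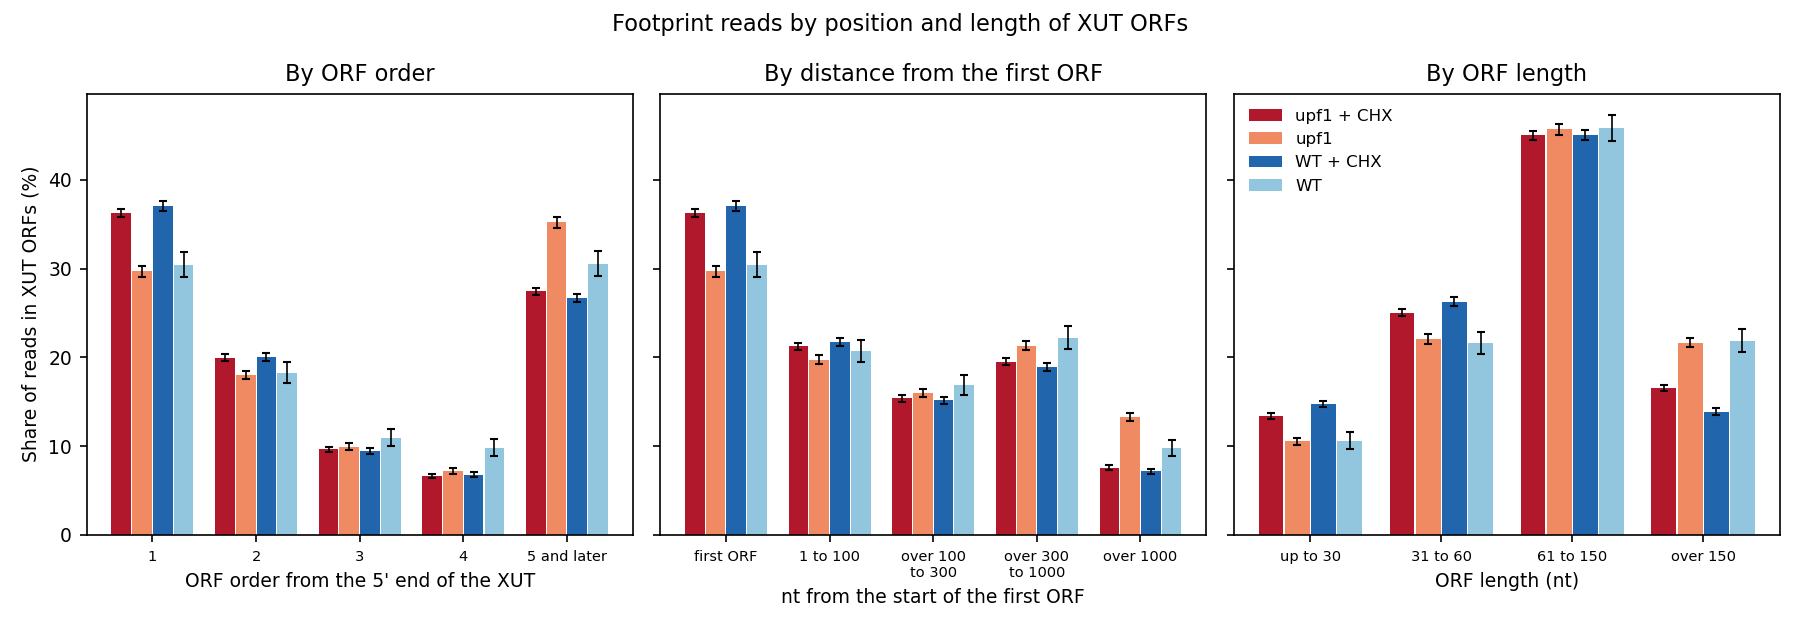
Share of reads in member ORFs (percent, vertical axis) by ORF order, distance from the start of the first ORF and ORF length, for upf1 + CHX beside upf1 and WT + CHX beside WT. Bars are shares of the merged column and error bars exact 95% counting intervals. First ORFs hold 36.3% in upf1 + CHX against 29.7% in upf1, and ORFs over 1000 nt away hold 7.57% in upf1 + CHX against 13.3% in upf1.

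Distance in nucleotides gave the same order of classes, in a split chosen after the order results were seen. ORFs starting 1 to 100 nt after the start of the first ORF held 21.3% in upf1 + CHX against 19.7% in upf1. The next class, over 100 and up to 300 nt, held 15.4% in upf1 + CHX and 16.0% in upf1, and the class of over 300 and up to 1000 nt held 19.5% in upf1 + CHX and 21.3% in upf1. Past 1000 nt the share was 7.57% in upf1 + CHX and 13.3% in upf1, a ratio of 0.570 (0.542 to 0.599). Over all member ORFs the ratio of shares thus decreased with each step away from the first ORF. In raw reads per kb the class past 1000 nt was nearly level, 23.7 in upf1 + CHX and 24.0 in upf1. Over ORFs that overlap no other, the class of 1 to 100 nt held less with CHX, 13.0% against 14.1% in upf1. Its ratio of 0.921 was below the 0.940 of the class of over 100 and up to 300 nt.

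The WT columns showed the first-ORF difference at close to the same size and the distal one at a smaller size. First ORFs held 37.1% in WT + CHX and 30.4% in WT, a difference of 6.64 points (5.13 to 8.12). ORFs of order 5 and later held 26.7% in WT + CHX and 30.6% in WT. Past 1000 nt the share was 7.15% in WT + CHX and 9.80% in WT, a ratio of 0.730. The upf1 and WT differences were not tested against each other.

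The pattern was spread over the genome. The first-ORF share was larger with CHX on 15 of 16 chromosomes, with differences from -1.33 to 13.2 points. Chromosome 9 was the exception, at 42.8% in upf1 + CHX and 44.2% in upf1. The share past 1000 nt was smaller with CHX on 15 of 16 chromosomes, and on chromosome 6 it was 6.91% in upf1 + CHX and 6.65% in upf1.

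Over all reads, short ORFs held a larger share with CHX and long ones a smaller share. ORFs of up to 30 nt held 13.4% of the reads in upf1 + CHX and 10.6% in upf1, a difference of 2.85 points (2.34 to 3.37). Those of 31 to 60 nt held 25.04% in upf1 + CHX and 22.07% in upf1. The class of 61 to 150 nt was nearly level at 45.0% in upf1 + CHX and 45.7% in upf1, with an interval on the difference that includes 0. ORFs over 150 nt held 16.5% in upf1 + CHX and 21.6% in upf1, a difference of -5.13 points (-5.77 to -4.49). As a mean over XUTs of the share within each, these differences were smaller, at 0.864 points for ORFs of up to 30 nt and -0.842 points for those over 150 nt. Over ORFs that overlap no other, the long class differed by -1.83 points. In WT the same classes moved the same way, with differences of 4.12 points for ORFs of up to 30 nt and -8.02 points for those over 150 nt. The short class was larger with CHX on 15 of 16 chromosomes, all but chromosome 2.

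Order and length were not interchangeable. Among first ORFs the ratio of shares was 1.59 for those of up to 30 nt, 1.54 for 31 to 60 nt, 1.15 for 61 to 150 nt and 0.829 for those over 150 nt. ORFs of up to 30 nt had ratios of 1.59 at order 1, 1.48 at order 2, 1.33 at order 3, 1.20 at order 4 (0.928 to 1.55) and 0.883 at order 5 and later. The smallest ratio was that of ORFs over 150 nt at order 5 and later, 0.608 (0.573 to 0.645), with 2264 reads in upf1 + CHX and 2145 in upf1. So short early frames stood at one end of the ratios and long late frames at the other.

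**Figure D2:**
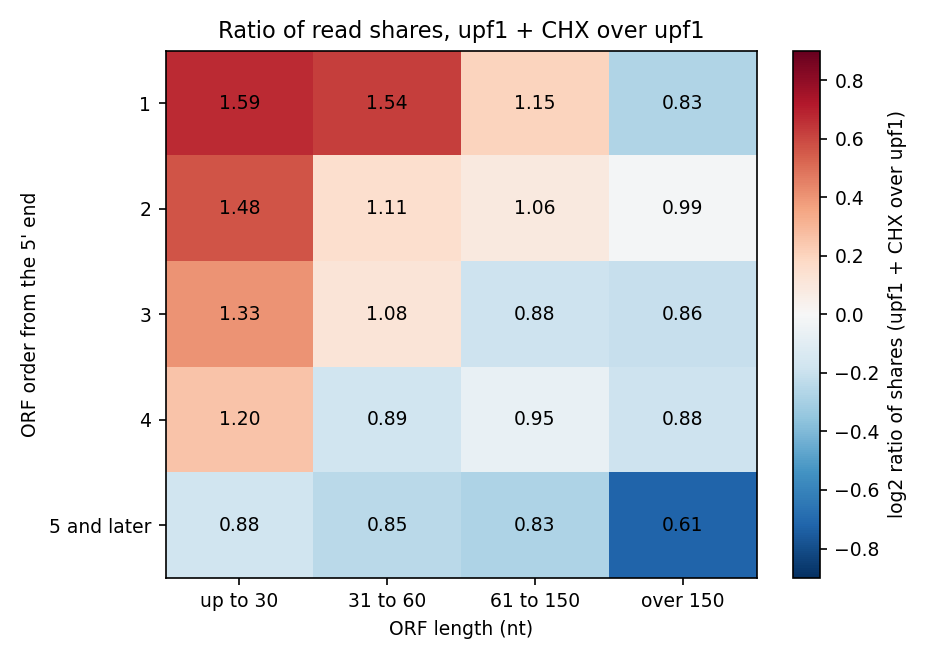
Map of the ratio of the share of reads in upf1 + CHX to that in upf1 by ORF order (down) and ORF length in nt (across), with the ratio printed in each cell and its log2 as colour, red above 0 and blue below. First ORFs of up to 30 nt stand at 1.59 and ORFs over 150 nt at order 5 and later at 0.61.

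The same shift appeared inside single transcripts, where each XUT is set against itself. Among 446 XUTs with at least 2 listed ORFs and 10 reads in each upf1 column, the first ORF held a larger part of the XUT's own reads with CHX in 272 (61%), a smaller part in 136 (30.5%) and the same part in 38. The median first-ORF share was 31.6% in upf1 + CHX and 22.5% in upf1, and the median of the differences was 2.62 points, with quartiles of -1.49 and 10.1. Most single XUTs were too thinly read to tell apart, since the counting intervals of the first-ORF share did not overlap in 20 XUTs with a larger share and in 1 with a smaller one. Of the pooled difference of 5.66 points over these XUTs, 4.23 points came from within XUTs and 1.43 points from a larger share of XUTs with much-read first ORFs. Counted over non-overlapping ORFs the median was 0.8 points, with 199 of 387 XUTs higher and 93 lower, and over ORFs that overlap no other it was 0, with 67 of 156 higher and 41 lower. Among 91 XUTs with 10 reads in each of the WT columns too, 57 were higher and 32 lower in upf1, and 66 were higher and 18 lower in WT.

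**Figure D3:**
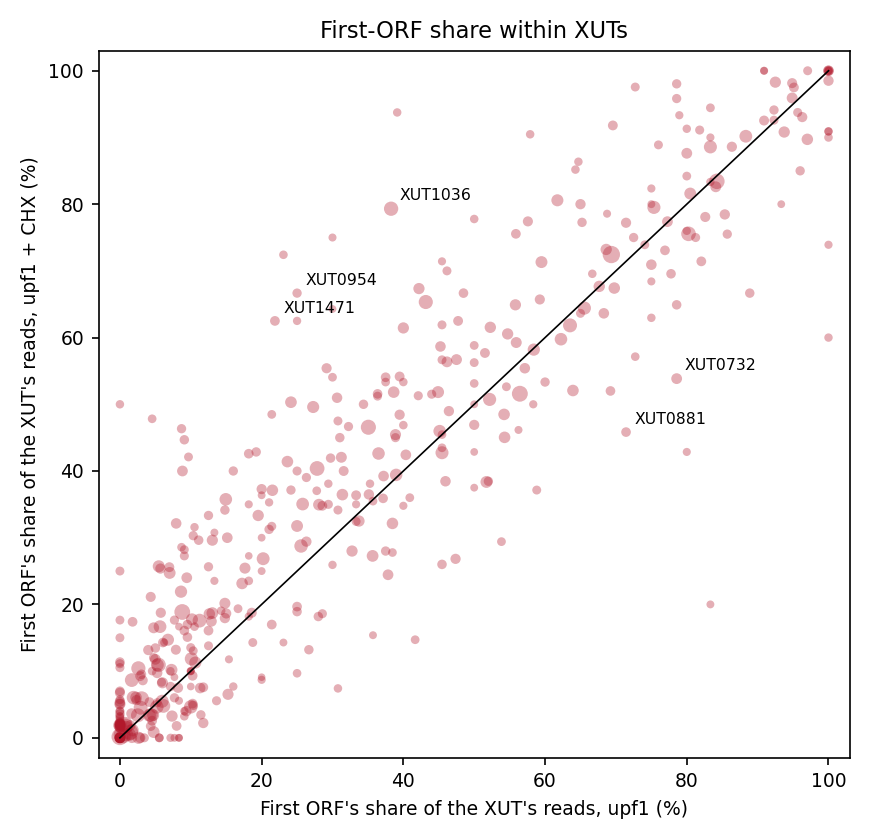
First-ORF share of a XUT's own reads (percent) in upf1 + CHX (vertical axis) and in upf1 (horizontal axis), 1 point for each of 446 XUTs, with the line of equal shares and point size growing with the XUT's reads. Of the XUTs, 272 lie above the line and 136 below it.

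Large gains of the first ORF came with short and with longer frames. In XUT1036, which runs opposite ARF2, a small GTPase of vesicle transport, and RGT2, a glucose sensor, the 24-nt first ORF held 303 of 382 reads in upf1 + CHX, against 31 of 81 in upf1. In XUT0954, opposite the RNA-binding protein gene HEK2, another 24-nt first ORF held 24 of 36 reads in upf1 + CHX and 7 of 28 in upf1. XUT1471, nearest to SDC25, had 30 of 48 reads in its 138-nt first ORF in upf1 + CHX and 7 of 32 in upf1. The first ORF thus went past 60% of the reads in these 3 XUTs with CHX and held under 40% without. The other 3 named gains were XUT0653 opposite MAS1, a subunit of the mitochondrial processing peptidase, at 46.3% in upf1 + CHX and 8.70% in upf1, XUT1565 opposite the iron oxidase gene FET3 at 44.7% in upf1 + CHX and 9.09% in upf1, and XUT0829 opposite GAC1, a regulatory subunit of a protein phosphatase, at 42.1% in upf1 + CHX and 9.68% in upf1.

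Losses of the first ORF were smaller, and in each of the 6 named XUTs the counting intervals overlapped. XUT0881, opposite INA17, a factor for assembly of the mitochondrial ATP synthase, had 22 of 48 reads in its first ORF in upf1 + CHX and 20 of 28 in upf1. XUT0732, near the ribosomal RNA processing gene RRP5, had 63 of 117 reads in upf1 + CHX and 11 of 14 in upf1. XUT1251 near VOA1, XUT1526 near the ribosomal protein gene RPL6B, XUT1486 near the exocyst gene SEC10 and XUT0180 opposite RRP1 had differences of -22.2, -21.7, -20.5 and -19.5 points.

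Reads antisense to coding sequences (CDS) took a smaller share with CHX in the mutant. ORFs opposite a CDS held 42.4% of the reads in upf1 + CHX and 49.7% in upf1, a difference of -7.30 points (-8.09 to -6.50). The difference was -4.32 points with the plasmid kept in the totals and -1.81 points as a mean over XUTs of the share within each. ORFs overlapping no CDS held 55.7% in upf1 + CHX and 47.3% in upf1. A small class on the strand of an annotated CDS or pseudogene held 1.84% in upf1 + CHX and 2.93% in upf1. The antisense share was smaller with CHX on 14 of 16 chromosomes, and larger on chromosomes 7 and 9. It was smaller both among first ORFs, 37.3% in upf1 + CHX against 42.4% in upf1, and among later ORFs, 45.4% in upf1 + CHX against 52.8% in upf1. Antisense ORFs at order 5 and later had the lowest ratio by class and order among the antisense and no-CDS classes, 0.640 (0.615 to 0.666), and first ORFs off any CDS the highest, 1.42 (1.37 to 1.48).

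In WT the antisense share did not move that way over all ORFs. It was 38.0% in WT + CHX and 36.1% in WT, a difference of 1.90 points, and over ORFs that overlap no other listed ORF the WT difference was -0.77 points against -8.50 points in upf1. The difference between upf1 and WT was not tested. The larger first-ORF share was present in both classes of the mutant, at 31.9% in upf1 + CHX against 25.3% in upf1 among antisense ORFs, and at 38.7% in upf1 + CHX against 32.0% in upf1 among ORFs off any CDS.

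Sequence around the frames differed little. ORFs with A at position -3, counted back from the A of the ATG, held 35.5% of the reads in upf1 + CHX and 34.8% in upf1, with an interval on the difference of -0.04 to 1.49 points. Over non-overlapping ORFs that difference was 1.19 points (0.30 to 2.07). For G at position -3 the difference was -1.18 points (-1.80 to -0.57), and -0.12 points (-1.18 to 0.92) over ORFs overlapping no other. ORFs ending in TAA held 38.0% in upf1 + CHX and 36.1% in upf1, a difference of 1.93 points that was 0.206 points over ORFs overlapping no other. For TGA the difference was -1.93 points (-2.71 to -1.15), and -0.59 points (-1.94 to 0.75) over ORFs overlapping no other. In WT the TAA difference was 4.94 points.

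Single XUTs moved in both directions, and the numbers past 2-fold each way depended on the scaling and on the read minimum. Sums per XUT were taken over 5018 non-overlapping ORFs, which held 31640 reads in upf1 + CHX and 17829 in upf1. Of 389 XUTs with at least 10 reads in each column, 29 (7.46%) had a share more than 2-fold larger with CHX and 46 (11.8%) a share more than 2-fold smaller. Centred on the median ratio instead of the column totals, the split was 38 larger and 36 smaller, and with the plasmid kept in the totals 38 larger and 40 smaller, so the excess of smaller shares depended on the scaling. With at least 4 reads in each column 81 were larger and 94 smaller, and with at least 20 reads 8 and 28. Over ORFs that overlap no other they were 7 and 30. The minimum is in raw reads and upf1 is the thinner column, so it favours XUTs with a high share in upf1. The tested XUTs held 77.3% of the reads in non-overlapping ORFs in upf1 + CHX and 84.9% in upf1. The part of the minimum in the excess of smaller shares was not tested. The median ratio was 0.937 (-0.09 on the log2 scale), the quartiles were 0.648 and 1.37, and the extremes were 0.176 and 4.25. The ratio was above 1 in 181 XUTs and below 1 in 208. The counting interval lay above 1 in 62 XUTs and below 1 in 75.

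XUTs with many ORFs tended to lose share. The median ratio was 1.20 for the 51 XUTs with 1 to 5 listed ORFs, 1.06 for the 105 with 6 to 10, 0.845 for the 129 with 11 to 20, and 0.837 for the 104 with over 20. Among those 104, 1 was past 2-fold larger and 22 past 2-fold smaller, while among the 51 with fewest ORFs 11 were larger and 3 smaller. XUTs with an antisense ORF had a median of 0.864 (n = 266) and the others 1.06 (n = 123).

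**Figure D4:**
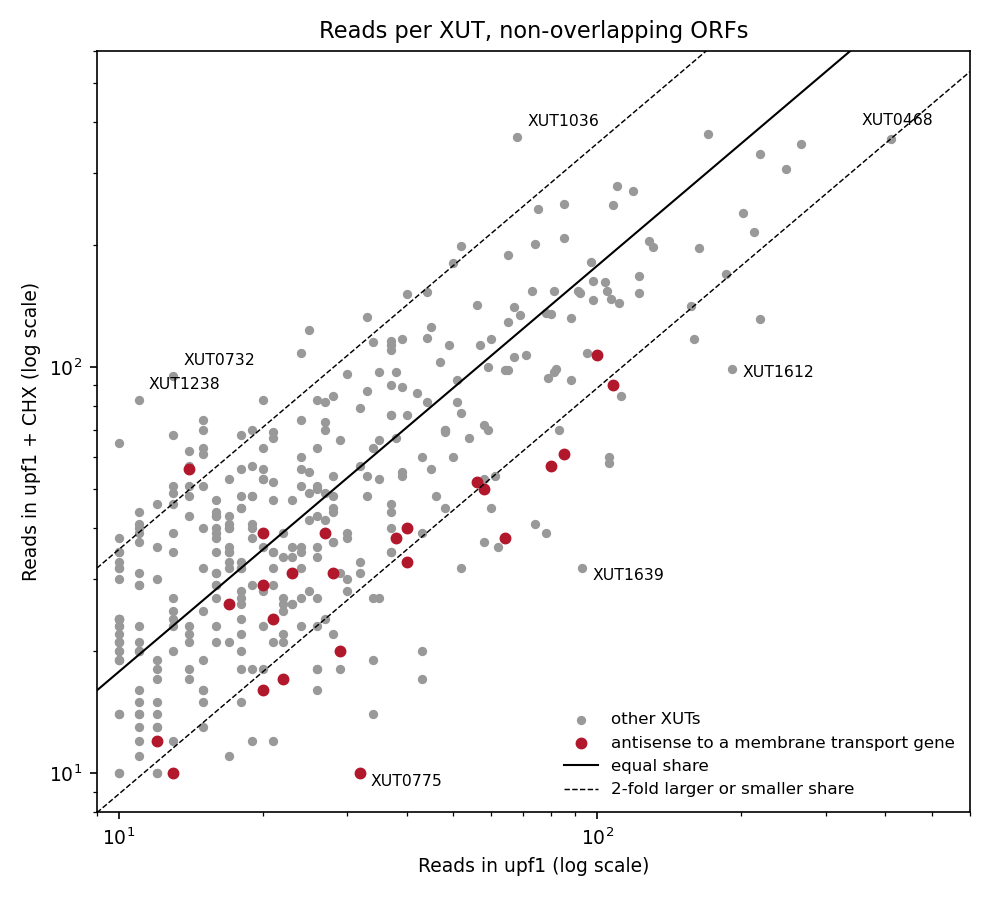
Reads per XUT in upf1 + CHX (vertical axis) against upf1 (horizontal axis), both log scale, for 389 XUTs over non-overlapping ORFs. The solid line marks equal shares and the dashed lines a 2-fold larger or smaller share, and red points are XUTs antisense to a membrane transport gene. Of the XUTs, 29 lie above the upper dashed line and 46 below the lower one.

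The largest gains were in XUTs of mixed neighbourhood. XUT1238, opposite ERV1, a sulfhydryl oxidase of the mitochondrial intermembrane space, had 83 reads in upf1 + CHX and 11 in upf1, a ratio of 4.25 (2.26 to 8.85). Counting overlapping ORFs as well, that ratio was 3.16. The 168-nt second ORF of XUT1238, with 76 reads in upf1 + CHX and 18 in upf1, is not in the sums of 83 and 11. The ratio of 4.25 thus depends on which overlapping ORFs were kept. XUT0732 near RRP5 had 95 reads in upf1 + CHX and 13 in upf1, a ratio of 4.12. XUT0664, a XUT with 1 listed ORF near TMA7, had 65 reads in upf1 + CHX and 10 in upf1, a ratio of 3.66. These 3 rest on 10 to 13 reads without CHX, and their intervals are wide. XUT1036 is better read, with 369 reads in upf1 + CHX and 68 in upf1, and its ratio was 3.06 (2.36 to 4.02). It also had 459 reads in WT + CHX and 14 in WT.

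Further gains were found in XUTs with an ORF opposite LSC2, a subunit of succinyl-CoA ligase (XUT0398, ratio 2.95), or opposite YOR097C (XUT0822, 2.78). XUT0738, with an ORF opposite URA10, an enzyme of pyrimidine synthesis, had 2.77, and XUT0679, with one opposite RIF2, a telomere-binding protein, 2.63. The 135-nt second ORF of XUT0738, with 119 reads in upf1 + CHX and 24 in upf1, overlaps no CDS and lies 5 nt from URA10. XUT1049, near the ATP synthase gene ATP16, had a ratio of 2.54, and XUT1705, near MPC54, which encodes a part of the meiotic spindle pole body, 2.50. In all 10 XUTs the counting interval lay above 1, as it did in 62 of the 389 tested. These 10 were picked as the highest ratios of the same counts, so their intervals are no separate evidence. Another 5 XUTs had 11 to 14 reads in upf1 + CHX and 0 in upf1, namely XUT0431 near YHR022C-A, XUT0184 opposite the glutaredoxin gene GRX3, XUT1626 opposite APJ1, XUT1789 opposite HOB2 and XUT0624 opposite the metal transporter gene SMF3. With a floor of 3 reads put in the upf1 column, their ratios came to 2.63, 2.44, 2.44, 2.25 and 2.07. The lower ends of their counting intervals were 1.87, 1.72, 1.72, 1.57 and 1.41. These XUTs were named for having 0 reads in upf1.

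The largest losses included a transporter, a storage enzyme and a Ty element. XUT0775, opposite HOL1, a membrane transporter, had 10 reads in upf1 + CHX and 32 in upf1, a ratio of 0.176 (0.077 to 0.367). XUT1639 had 32 reads in upf1 + CHX and 93 in upf1, a ratio of 0.194, of which 31 in upf1 + CHX and 90 in upf1 lay in a single ORF of 4038 nt that overlaps a Ty retrotransposon, whose copies can share reads. XUT1126, opposite GLC3, the glycogen branching enzyme, had 17 reads in upf1 + CHX and 43 in upf1, a ratio of 0.223. All 3 intervals lay below 1, as did 75 of the 389 tested, but these XUTs were picked as the lowest ratios of the same counts. The other 7 were XUT0773 near ESF2 (0.232), XUT0014 near SWH1 (0.262), XUT0467 opposite CSS1 (0.282), XUT1612 opposite YTP1 (0.292), XUT0047 near the tRNA methyltransferase gene TRM7 (0.308), XUT0761 opposite YNL095C (0.312) and XUT0088 opposite FRM2 (0.315). XUT1612 is the best read of them, with 99 reads in upf1 + CHX and 191 in upf1. In the other direction, no XUT with 0 reads in upf1 + CHX had more than 4 reads in upf1, which XUT1690 opposite the spindle checkpoint gene BUB3 had. XUT0668, XUT0944, XUT1026 and XUT1638 had 3 each, and no fold is given for them.

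Among the 10 most-read XUTs, 6 had a ratio below 1 and 4 above, against 208 below and 181 above among all 389 tested. XUT0468 held the most reads, 363 in upf1 + CHX and 411 in upf1, a ratio of 0.498 (0.431 to 0.575). Its 381-nt first ORF, with 355 reads in upf1 + CHX and 396 in upf1, lies on the strand of the annotated pseudogene SDL1. XUT0083 had a ratio of 0.747, XUT1722 0.698, XUT0957 near the ribosomal protein gene RPL19B 0.859 with an interval that includes 1, XUT1341 opposite the cytochrome c oxidase gene COX5B 0.667 and XUT1433 opposite MBR1 0.569. Above 1 were XUT1036, XUT1452 at 1.43, XUT1038 opposite the vacuolar calcium exchanger gene VCX1 at 1.28 and XUT1511 opposite the spore wall gene GAS2 at 1.24. In XUT1038, a 33-nt ORF that overlaps no CDS, 100 nt from VCX1, held 172 of 271 reads in upf1 + CHX and 45 of 119 in upf1. XUT1722, XUT1452 and XUT1511 overlap repeats, so reads of other copies can enter their counts.

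The XUT ratios of mutant and WT could be set side by side for few XUTs. Only 59 XUTs had at least 10 reads in all 4 columns. Of these, 42 lay on the same side of 1 in both strains, 12 above it and 30 below it, while 16 were above 1 in upf1 and below 1 in WT, and 1 the reverse. Their median ratio was 0.954 in upf1 and 0.647 in WT. The minimum of 10 reads in the thin WT column keeps XUTs that are well read in WT without CHX. Across these 59 XUTs the log2 ratios had a Pearson r of 0.61 and a Spearman rho of 0.62, given as a description of XUTs that share 4 merged columns.

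Most XUTs opposite membrane transport genes had a smaller share with CHX in the mutant. Of 24 such XUTs with 10 reads in each column, 22 had a smaller share with CHX, 11 were past 2-fold smaller and 1 past 2-fold larger. Over all 389 tested XUTs, 208 had a smaller share, 46 (11.8%) were past 2-fold smaller and 29 past 2-fold larger. Their median ratio was 0.543, against 0.937 over all. XUT0925, opposite the oligopeptide transporter gene OPT2, had 38 reads in upf1 + CHX and 64 in upf1, a ratio of 0.335. XUT1352, opposite the allantoin permease gene DAL4, had 20 reads in upf1 + CHX and 29 in upf1, a ratio of 0.389. XUT1656 opposite PDR18, an ABC transporter, had 57 reads in upf1 + CHX and 80 in upf1, a ratio of 0.401. These XUTs all lay past 2-fold lower. XUT1340 opposite the drug exporter genes QDR1 and QDR2 had 61 reads in upf1 + CHX and 85 in upf1, a ratio of 0.404. XUT1417, opposite the lactate permease gene JEN1, is the best read of those under 0.5, with 90 reads in upf1 + CHX and 108 in upf1, a ratio of 0.470 (0.351 to 0.627). The galactose permease gene GAL2 (0.465), the sulfate permease gene SUL2 (0.435), BIO5 (0.486), MCH2 (0.451), the polyamine exporter gene TPO1 (0.433) and HOL1 lay opposite the rest. For XUT1470 opposite TPO1 the interval includes 1.

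The exceptions were XUT0797 opposite SMF1, a manganese transporter, with 56 reads in upf1 + CHX and 14 in upf1 (2.25), and XUT1769 opposite PMA2, a plasma membrane proton pump, with 39 in upf1 + CHX and 20 in upf1 (1.10, interval including 1). XUT0999, opposite the sulfate permease gene SUL1, had a ratio of 0.603, and XUT0371, opposite the ammonium permease gene MEP1, 0.523. Counting every ORF opposite a gene of the list, 864 reads fell there in upf1 + CHX and 1017 in upf1, a ratio of 0.489 (0.446 to 0.536). Among them first ORFs had a ratio of 0.741 and later ORFs 0.432, and ORFs opposite other genes had 0.888 (0.866 to 0.910).

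XUTs of this list held a median of 20.5 listed ORFs, against 12 over all tested XUTs, and the part of ORF number in the result was not tested. Among XUTs with over 10 ORFs, those opposite transport genes had a median of 0.523 with 19 of 21 lower, and those opposite other genes a median of 0.849 with 92 of 159 lower. No XUT of the list had 10 reads in all 4 columns. In WT the ORFs opposite transport genes had 481 reads in WT + CHX and 77 in WT, a ratio of 0.829 (0.650 to 1.07).

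**Figure D5:**
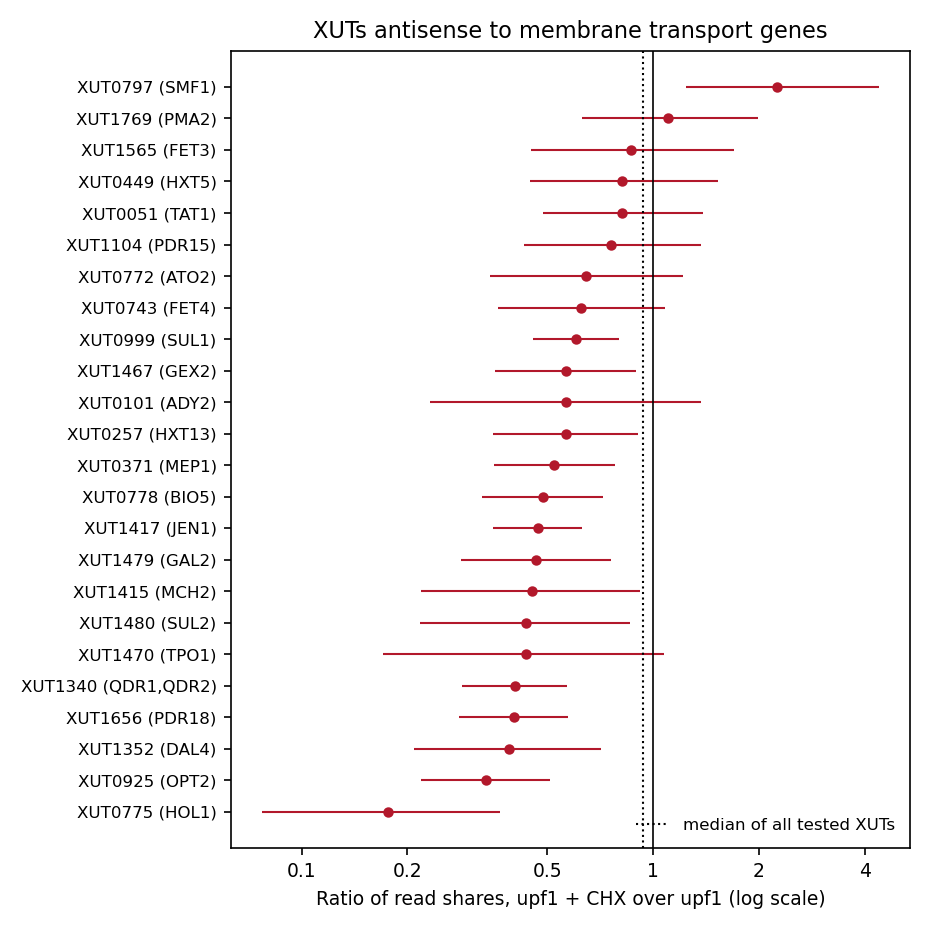
Ratio of the share of reads in upf1 + CHX to that in upf1 (log scale) for each of 24 XUTs opposite membrane transport genes, with exact 95% counting intervals and the median over all 389 tested XUTs as a line. Of the 24, 22 lie below 1, from HOL1 at 0.176, and SMF1 lies at 2.25. Over all 389 tested XUTs, 208 had a ratio below 1.

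The other lists had fewer tested members. Over all 389 tested XUTs, 181 were higher and 208 lower, with a median of 0.937. Ratios per XUT, here and for the transport list, use all reads of the XUT, also those in ORFs not opposite the named gene. Of 18 XUTs opposite genes of carbon metabolism and glucose sensing, 7 were higher and 11 lower with a median of 0.846. They ranged from the XUT opposite GLC3 at 0.223 to XUT1036, opposite RGT2, at 3.06. In XUT1036, 303 of the 369 reads in upf1 + CHX lay in its first ORF, which overlaps no CDS. ALD2, an aldehyde dehydrogenase gene, stood at 2.10, and GAL4, the activator of galactose genes and among the better read with 154 reads in upf1 + CHX and 91 in upf1, at 0.954. Of 11 XUTs opposite genes of meiosis and sporulation, 4 were higher and 7 lower with a median of 0.745, from NDT80, the activator of middle meiotic genes, at 0.511 to SPO77 at 2.13. Of 5 opposite genes of mitochondrial respiration and the TCA cycle, 4 were lower, including COX5B, COX8 at 0.731, CYT1 at 0.670 and CYB2 at 0.515, and LSC2 was higher. The cell wall list had 3 XUTs, of which MNN4 at 0.327 was lower. Over all 71 ORFs opposite cell wall genes, in 17 XUTs, 187 reads fell in upf1 + CHX and 216 in upf1, a ratio of 0.499 (0.408 to 0.609), which is about as low as that of the transport list. In WT these ORFs had 123 reads in WT + CHX and 54 in WT, a ratio of 0.302 (0.218 to 0.424). The pooled ratio in upf1 was 0.863 for meiosis and sporulation, 0.757 for mitochondrial respiration and 0.903 for carbon metabolism. The list of ribosome and translation had 1 XUT, at 1.03.

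At the level of single ORFs, 177 had at least 20 reads in both columns, of which 12 (6.78%) had a share more than 2-fold larger and 19 (10.7%) one more than 2-fold smaller. The median ratio was 0.864, with 69 higher and 108 lower. The minimum is in raw reads and upf1 is the thinner column, so it favours ORFs with a high share in upf1. That holds for the class counts below too, and the part of the minimum in them was not tested. Among 79 antisense ORFs 15 were higher and 64 lower, and among 94 off any CDS 52 were higher and 42 lower. ORFs over 150 nt had 12 higher and 27 lower, none of them past 2-fold larger.

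The 24-nt first ORF of XUT1036 stood apart, with 303 reads in upf1 + CHX and 31 in upf1, and 393 reads in WT + CHX against 10 in WT. Its ratio in the mutant was 5.63 (3.88 to 8.43). The frame lies 5 nt from the ARF2 coding sequence, overlaps no other listed ORF, and has C at position -3. Its phase score, the authors' measure from 0 to 1 of how strictly reads keep to 1 codon position, was 0.544 in upf1 + CHX and 0.604 in upf1. Next came the 54-nt first ORF of XUT1253, opposite CLD1, a cardiolipin phospholipase gene, with 170 reads in upf1 + CHX and 32 in upf1 (3.06). A 90-nt ORF of the same XUT begins inside it, shares sequence with it and had 232 reads in upf1 + CHX and 56 in upf1 (2.39).

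The remaining gains were the 135-nt second ORF of XUT0738 (2.86), the 87-nt first ORF of XUT1049 (2.59), a 42-nt ORF of XUT0541 that overlaps a repeat (2.41), the 102-nt first ORF of XUT1682 near PHO80, the cyclin of phosphate signalling (2.32), and the 36-nt first ORF of XUT0909 (2.23). Of the 8 gains, 5 were first ORFs and 3 second ORFs. Among all 177 ORFs tested, 78 were first ORFs and 40 second ORFs. Of the 78 first ORFs, 32 were higher and 46 lower, and of the 40 second ORFs, 16 were higher and 24 lower.

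Of the 8 largest losses 7 were antisense, and 1 was a first ORF, against 79 antisense ORFs and 78 first ORFs among all 177 tested. Beside the Ty ORF of XUT1639 (0.198), they were the 210-nt ORF of XUT0933 opposite BDH2 with 32 reads in upf1 + CHX and 62 in upf1 (0.297), the 105-nt ORF of XUT0761 with 27 in upf1 + CHX and 48 in upf1 (0.324), and the 84-nt ORF of XUT0692 opposite CYB2, a lactate dehydrogenase gene, with 23 in upf1 + CHX and 37 in upf1 (0.358). Then followed the 90-nt first ORF of XUT0974 opposite YBR071W with 37 reads in upf1 + CHX and 58 in upf1 (0.367), ORFs opposite ARO10 (XUT1101, 0.384) and PDR3 (XUT0961, 0.397), and the 72-nt ORF of XUT0311 opposite EPL1 with 47 in upf1 + CHX and 68 in upf1 (0.398). The frames printed above from XUT0692, XUT0974 and XUT0311 overlap no other listed ORF.

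Phase scores did not shift in 1 direction. In the 436 ORFs that had 10 or more reads in each column, the score was higher in upf1 + CHX in 214 and lower in 222, and the median difference was -0.0046 (-0.018 to 0.020). It was 0.020 in the 177 ORFs with 20 or more reads in each column, with 101 higher and 76 lower. Scores depend on depth, since 89.2% of the ORFs with 1 read in upf1 + CHX and 91.3% of those with 1 read in upf1 scored 1. The 33 ORFs of up to 30 nt had a median difference of -0.099 (-0.202 to 0.084) and the 101 over 150 nt one of 0.027 (-0.020 to 0.082), and both intervals include 0.

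Single ORFs differed by more. The largest increase was in the 48-nt first ORF of XUT0618, at 0.656 in upf1 + CHX with 49 reads and 0.134 in upf1 with 28 reads. The ORF of XUT0311 scored 0.636 in upf1 + CHX and 0.194 in upf1, and that of XUT1022 opposite the alcohol dehydrogenase gene ADH7, 0.666 in upf1 + CHX with 177 reads and 0.276 in upf1 with 113 reads. Increases of the same kind were found in XUT0741 near ADH2, in XUT1599 opposite the Elongator gene ELP6, in XUT0567 opposite MNN4, in XUT0933, and in XUT0488 opposite the meiotic gene SPO22. The first ORF of XUT0909 went the other way, at 0.278 in upf1 + CHX with 85 reads and 0.654 in upf1 with 22 reads. The ORF of XUT0541 scored 0.318 in upf1 + CHX and 0.666 in upf1. The other 6 decreases were in XUT0599, XUT1283 opposite RIM4, a regulator of meiotic translation, XUT1181, XUT0718 opposite SHH3, XUT1134 and XUT0109.

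An ORF was counted as translated here at a score of at least 0.32 with at least 10 reads in that column. That gave 677 of 932 ORFs (72.6%, 69.7 to 75.5%) in upf1 + CHX and 305 of 488 (62.5%, 58.0 to 66.8%) in upf1. The ORFs deep enough to be called differ between the columns, and with no minimum beyond 1 read the called shares differed by 0.061 points. On the same 436 ORFs the counts were 297 in upf1 + CHX and 273 in upf1, a difference of 5.50 points whose interval (-0.97 to 11.9) includes 0. Of them 196 were called in both, 101 in upf1 + CHX alone, 77 in upf1 alone and 62 in neither. First ORFs were called in 76.8% in upf1 + CHX and 66.9% in upf1, and ORFs over 150 nt in 57.3% in upf1 + CHX and 41.5% in upf1.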

How the data were processed

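Ribo-seq libraries of 8 samples were used as 1 table of XUT ORFs, in which each column merges the 2 libraries of a group. The submitters' processing notes name HISAT2 2.2.0, cutadapt and UMI-tools, and R64 as the build. Per the labels' protocols, footprints came from RNase I digestion at 5 units per A260 after a sucrose cushion. The deposited counts are whole numbers not scaled to depth, and the deposited phase score runs from 0 to 1. How the ORFs were listed and scored and the libraries merged is not given in the sources used here.

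Computed here were shares of reads and ratios of shares (Python 3.11.15, scipy 1.17.1), with exact Clopper-Pearson intervals on shares, exact conditional binomial intervals on ratios, intervals on differences built from the Clopper-Pearson limits, and order-statistic intervals on median scores. The scripts were tested on simulated data. Ratios per XUT used ORFs that do not overlap, picked from the highest pooled count down, and at least 10 reads in each column. Other shares used all member ORFs. All 13912 ORFs off the plasmid began with ATG in R64 and were followed by a stop codon, and CDS overlap needed 1 nt. No test was run because no column holds a single replicate.

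Named items were the 10 highest and lowest XUT ratios, the 10 most-read XUTs, the 5 most-read XUTs at 0 in either column, the 6 largest gains and losses of first-ORF share at 50 reads or more, and the 8 extreme ORF ratios and score differences each way at 20 reads or more, plus members of the gene lists. Members, lists and rules were chosen with earlier results of these data known.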

Additional observations from a re-analysis of the deposited data

Results flagged for a closer look

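Some values lay on opposite sides of no difference in upf1 and in WT, in part with intervals that include no difference. None was tested, since each column is 1 merged value. The share of reads antisense to a CDS differed by -7.30 points in upf1 and by 1.90 points in WT (0.33 to 3.44). That of ORFs off any CDS differed by 8.39 points in upf1 and -1.11 points in WT (-2.67 to 0.46). ORFs opposite genes of mitochondrial respiration and the TCA cycle had a ratio of shares of 0.757 in upf1 and 1.16 in WT (0.896 to 1.54). Those opposite genes of carbon metabolism and glucose sensing had 0.903 in upf1 (0.812 to 1.01) and 1.57 in WT (1.17 to 2.16). XUT0664 had a ratio of 3.66 in upf1 and 0.930 in WT, XUT1452 one of 1.43 in upf1 and 0.832 in WT, and XUT1511 one of 1.24 in upf1 and 0.503 in WT. The WT column without CHX holds 4224 reads, so its values are the least precise. For XUT0664 it holds 11 reads.

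Reads on the 2-micron plasmid, outside the comparison, made up 6.74% of the reads in listed ORFs in upf1 + CHX and 11.7% in upf1, on 2968 reads in upf1 + CHX and 3141 in upf1.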

How the results depend on the processing

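Directions held under most alternatives, and 50 of 83 alternatives other than those for single XUTs kept the size too. XUTs past 2-fold numbered 7 larger and 30 smaller over ORFs that overlap no other, 81 and 94 with at least 4 reads, 8 and 28 with at least 20 reads, and 77 and 101 past 1.5-fold. Over ORFs overlapping no other, the differences were 9.36 points for first ORFs, 4.17 for ORFs of up to 30 nt, -1.83 for those over 150 nt, -8.50 for antisense and 0.206 for TAA. As a mean over XUTs of the share within each, they were 4.26 for first ORFs, -4.04 for order 5 and later, 0.864 for up to 30 nt, -0.842 for over 150 nt, -1.81 for antisense and 1.12 for TAA. With the plasmid kept they were -9.78 for order 5 and later, -5.85 for over 150 nt and -4.32 for antisense. Without repeats and ORFs on the strand of a CDS they were -4.11 for over 150 nt and -8.41 for antisense, and over non-overlapping ORFs -6.27 for over 150 nt. The within-XUT median was 0.8 points over non-overlapping ORFs and 0 over ORFs overlapping no other, with 67 of 156 XUTs higher and 41 lower. The score difference changed sign, to 0.020 with at least 20 reads and 0.0074 with counts within 1.5-fold. The difference in called share was 0.061 points with at least 1 read, against 10.1 at 10 reads. For single XUTs 98 of 101 alternatives kept direction and stayed inside the XUT's own counting interval. Centring on the median and keeping the plasmid scale every ratio by 1 common factor close to 1, so those alternatives could hardly move a XUT. XUT0957 came to 1.11 over all ORFs and XUT1511 to 0.930 over ORFs overlapping no other. For none of these was the cause tested. Transport XUTs past 2-fold smaller numbered 4 of 14 over ORFs overlapping no other, with all 14 lower, and 7 of 17 with at least 20 reads. Repeats, distance classes and the transport alternatives were added after the data were seen.

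No paired analysis was possible because the columns merge the replicates and carry no replicate number. For the same reason no replicate was left out. The plasmid alternative for start context and stop codon was not run because no plasmid sequence was used here. Depth limits most single XUTs, and overlap of ORFs limits how reads are placed.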
